A study of Mus musculus with 9 samples.

Results

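The core circadian clock genes were followed in liver RNA of mice with and without the macrophage scavenger receptor gene Msr1. Members were the 10 rows of the deposited expression table whose gene symbol is Arntl, Npas2, Clock, Cry1, Per1, Per2, Per3, Nr1d1, Nr1d2 or Dbp, and each of the 10 was found among the 17442 genes of the table. The 9 livers came from male C57BL/6 mice kept for 16 weeks on a high fat-cholesterol diet, 4 of genotype Msr1+/+ (wild type) and 5 of genotype Msr1-/-, with 1 library per animal. Both genotypes were labelled with NAFLD (non-alcoholic fatty liver disease), so every liver shared the strain, the sex and the diet, and no group on another diet was analysed here. The hour of tissue collection, the feeding state and the age of the animals are not given in the sources used here. The comparison asked whether the clock genes differ between the genotypes and whether the activating and repressing limbs of the clock shift in opposite directions. Values are normalised read counts, meaning the reads of a gene scaled by a factor for each liver.

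The clock of a liver cell is a feedback loop of transcription. The positive limb consists of BMAL1, encoded by Arntl, which pairs with CLOCK or with its relative NPAS2 and switches on genes that carry E-boxes. Among these genes are the negative limb genes, whose period (PER) and cryptochrome (CRY) proteins inhibit the activating pair, and the nuclear receptors REV-ERB alpha and beta, encoded by Nr1d1 and Nr1d2, which repress Arntl and Npas2 through ROR elements. Dbp, an output of the loop, encodes an activator that binds D-boxes. In rodent liver, Arntl and Npas2 RNA peak at a phase of the day roughly opposite to that of Dbp and the Per genes, with Nr1d1 earlier than the Per genes.

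Letters matching elements of the loop were found near the starts of some members. They are matches of sequence only, and binding was not measured. RefSeq windows on GRCm38.p6, the assembly of mm10, of 300 bases (250 before to 50 after a transcription start) were available for 9 of the 10 members, 13 windows in all, and Per2 had no entry. Both strands were searched for the E-box CACGTG, the E-prime-box CACGTT, the D-box TTANGTAA and the ROR element (RORE). An E-box was present in 7.15% of all 32851 windows, an E-prime-box in 4.68%, a D-box in 2.32% and a RORE in 0.384%. No matches of different motifs overlapped in the members. Matches were found in 5 members, and the windows of Npas2, Clock, Nr1d2 and Dbp held none of these letters. Stretches of 4 members are shown because they carry kinds of element that link the limbs, each on the strand of its gene with the matched letters in capitals.
Arntl (chr7:113207525-113207554, plus strand, RORE): tagggaaggcagAAAGTAGGTCAgggacgg
Per1 (chr11:69098759-69098818, plus strand, E-box): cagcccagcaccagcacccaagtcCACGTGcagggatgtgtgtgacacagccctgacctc
Cry1 (chr10:85185096-85185155, minus strand, E-prime-box on the opposite strand, then E-box): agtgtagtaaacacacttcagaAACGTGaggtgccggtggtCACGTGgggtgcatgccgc
Per3 (chr4:151044806-151044880, minus strand, D-box at both places): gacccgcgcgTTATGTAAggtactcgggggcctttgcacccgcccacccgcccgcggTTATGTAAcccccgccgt
The Arntl match begins at base 27 counted from the transcription start. The Per1 E-box begins 166 bases before the start, the Cry1 elements 79 and 60 bases before it, and the Per3 D-boxes 205 and 158 bases before it. The window of Nr1d1 held an E-prime-box that begins 28 bases before the start.

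Between 15006773 and 18238932 reads per liver were recovered from the table. The targeted gene Msr1 stood at 278 ± 125 (SD, n = 4) in wild type, from 194 to 460.5, and at 175 ± 23.0 (SD, n = 5) in Msr1-/-, from 153 to 209. The mean log2 difference was -0.58 (two-sided exact permutation p = 0.0476), and -0.31 without wild type 3 (exact permutation p = 0.107), and leaving out 1 liver at a time gave exact permutation p values from 0.0286 to 0.107, so the level of this gene does not check the labels clearly and each direction rests on the genotype as labelled. Wild type 3 stood apart from the other livers, at -88.74 on the first principal component (41% of the variance) against -8.30 to 27.61. Macrophage markers, 6 of 6 with a negative log2 fold change, summed to 9318 in wild type 3, 4082 to 5346 in the other wild-type livers and 2385 to 3169 in Msr1-/-, with 0 of 6 passing the limma test. Stellate cell markers, 5 of 5 with a negative log2 fold change and 0 passing, summed to 2079.7 in wild type 3 and 809 to 1283 in the other 8 livers. The 4 hepatocyte markers in the table, 1 with a negative log2 fold change and 0 passing, summed to 1256146 against 1566910.1 to 2278265. Endothelial markers, 4 of 4 with a negative log2 fold change and 0 passing, summed to 1882 against 1788 to 2157. Lymphocyte markers, 4 of 4 with a negative log2 fold change and 1 passing the limma test, summed to 475 to 788 in wild type and 147 to 320.0 in Msr1-/-. No marker of any list was at 0 in any liver. Wild type 3 was the highest or the lowest of the 9 livers in 8 of the 10 clock genes and in 51.9% of all tested genes. Clock values below are therefore given with and without it, and the part of its cell makeup in them was not tested. In bulk RNA, fewer cells of a type and less RNA per cell cannot be told apart.

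No clock gene passed the test for a difference between the genotypes. Testing needed a mean of at least 10 over the 9 livers, which 9 of the 10 members reached. Of these, 0 passed an adjusted p of 0.05 in limma, while 1.37% of the 12937 tested genes passed in either direction. An unadjusted p under 0.05 was reached by 0 members and by 15.3% of tested genes. On the recovered reads, edgeR called 0 members against 1.43% of genes and DESeq2 0 members against 6.0%, with 0 members at an unadjusted p under 0.05 in either tool. With wild type 3 left out, limma called 0 of the 9 tested members against 4.91% of all tested genes, again with 0 at an unadjusted p under 0.05. The genotypes overlapped in each of the 10 members, and were separate in 7.29% of tested genes. The 95% intervals below give the range of differences that these livers allow.

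Arntl (chr7:113207465-113314126, plus strand, GENCODE genes on mm10 here and below), the activator without which the loop stops, rested on 11 to 208 reads per liver. It stood at 11.8, 16.9, 163 and 38.9 in wild type 1 to 4 and at 48.7, 41.1, 19.2, 33.9 and 23.0 in Msr1-/- 1 to 5. Wild type 3 held the highest level and wild type 1 the lowest, and the 5 Msr1-/- livers lay between them. The log2 fold change (Msr1-/- minus wild type, on the log2(value + 1) scale) was -0.11 ± 0.64 (SE), with a 95% interval from -1.52 to 1.29 (limma adjusted p = 0.964). edgeR and DESeq2 on the recovered reads gave -0.83 and -0.81 (adjusted p = 0.626 and 0.631). Without wild type 3 it was 0.63 in limma, with an interval from -0.24 to 1.50 (limma adjusted p = 0.39). Exons of Arntl share bases with Gm45355 on the opposite strand, and without a stated strand setting reads within the shared bases cannot be told apart.

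Npas2 (chr1:39193731-39363236, plus strand), the relative of Clock, had few reads in most of these livers. The 4 wild-type livers held 0.0, 3.2, 42.4 and 18.0, and the 5 Msr1-/- livers 8.5, 6.9, 4.6, 2.3 and 3.0, from 0 to 54 reads per liver. The order of the wild-type livers was that of Arntl, with wild type 3 highest and wild type 1 without a read. Its mean over the 9 livers was 9.87, just under the minimum for a test, and the difference of the mean log2(value + 1) was -0.45, or 0.38 without wild type 3. edgeR and DESeq2 gave -1.68 and -1.67 on the 9 livers. Clock (chr5:76209868-76304792, minus strand) stood at 330.4, 233, 612 and 423 in wild type and 621, 467, 325, 421 and 346 in Msr1-/-. Its 2 highest livers were Msr1-/- 1 and wild type 3, 1 in each genotype. The log2 fold change of Clock was 0.17 ± 0.27 (SE), with a 95% interval from -0.42 to 0.77 (limma adjusted p = 0.844). Leaving out wild type 3 gave 0.41, with an interval from -0.09 to 0.90.

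The 3 Per genes, which encode the repressors that accumulate and turn the activators off, had positive log2 fold changes and wide intervals. Per1 (chr11:69095217-69109960, plus strand) stood at 169, 524, 71.4 and 86.3 in wild type and at 96.4, 399, 395, 343 and 316 in Msr1-/-. A pair of wild-type livers and Msr1-/- 1 were under 100, and wild type 2 was above every Msr1-/- liver. Its log2 fold change of 0.85 ± 0.58 (SE) had an interval from -0.42 to 2.13 (limma adjusted p = 0.549), and it was 0.49 without wild type 3, where the wild-type mean was 259.9 ± 233 (SD, n = 3). Per2 (chr1:91415982-91459324, minus strand) stood at 543, 1086, 96.5 and 677 in wild type and at 282, 693, 933, 909 and 823 in Msr1-/-. Wild type 3 and Msr1-/- 1 were the 2 lowest livers. Its log2 fold change was 0.60 ± 0.61 (SE), with an interval from -0.75 to 1.94 (limma adjusted p = 0.73), and -0.13 without wild type 3.

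Per3 (chr4:151003652-151044665, minus strand) showed the widest range of the tested members, 16.2-fold from the lowest to the highest liver. The wild-type livers held 723, 953, 58.8 and 439, and the Msr1-/- livers 382, 538, 771, 712 and 671. Wild type 3 was far below all others, and the range over the other 8 livers was 2.50-fold. The log2 fold change of 0.70 ± 0.66 (SE), interval -0.75 to 2.16 (limma adjusted p = 0.695), was -0.17 without wild type 3, with an interval from -0.74 to 0.40.

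Cry1 (chr10:85131700-85185064, minus strand) encodes a cryptochrome that binds and silences the activating pair. It stood at 96.2, 90.7, 88.6 and 93.9 in wild type and at 132, 161, 89.5, 115 and 99.2 in Msr1-/-. Of the Msr1-/- livers, 4 were above every wild-type liver and Msr1-/- 3 was not. Its log2 fold change of 0.34 ± 0.18 (SE), interval -0.05 to 0.73, had the smallest adjusted p of the members (limma adjusted p = 0.416) and was 0.32 without wild type 3. It was the member that wild type 3 moved least, at 1.06-fold below the geometric mean of the other 3 wild-type livers.

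Nr1d1 (chr11:98767932-98775333, minus strand) and Nr1d2 (chr14:18204054-18239127, minus strand) encode the REV-ERB repressors of Arntl. Nr1d1 stood at 587, 697, 625 and 998 in wild type and at 859, 665, 1211, 718 and 1597 in Msr1-/-. The 2 highest livers were Msr1-/- 5 and Msr1-/- 3, and wild type 3 lay within the range of the others. Its log2 fold change was 0.43 ± 0.26 (SE), with an interval from -0.15 to 1.00 (limma adjusted p = 0.499), and 0.36 without wild type 3. Exons of Nr1d1 share bases with Thra on the opposite strand, and reads within the shared bases cannot be told apart. Nr1d2 stood at 1848, 1935, 883 and 1402 in wild type and at 1563, 1479, 1474, 1416 and 1503 in Msr1-/-. The Msr1-/- livers were nearly level, with an SD of 53.2 around a mean of 1487, and the wild-type livers lay on both sides of them. The log2 fold change of Nr1d2 was 0.03 ± 0.20 (SE), with an interval from -0.41 to 0.48 (limma adjusted p = 0.964), and -0.20 without wild type 3 (interval -0.46 to 0.05).

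Dbp (chr7:45705088-45710203, plus strand), the output gene, stood at 758, 685, 129 and 486 in wild type and at 518, 526, 1026, 573 and 1021 in Msr1-/-. Wild type 3 was the lowest of the 9 livers, and Msr1-/- 3 and Msr1-/- 5, the livers of highest Nr1d1, were the highest. The log2 fold change was 0.71 ± 0.47 (SE), with an interval from -0.32 to 1.74 (limma adjusted p = 0.538), and 0.14 without wild type 3. Exons of Dbp share bases with Sphk2 on the opposite strand, with the same limit.

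**Figure D1:**
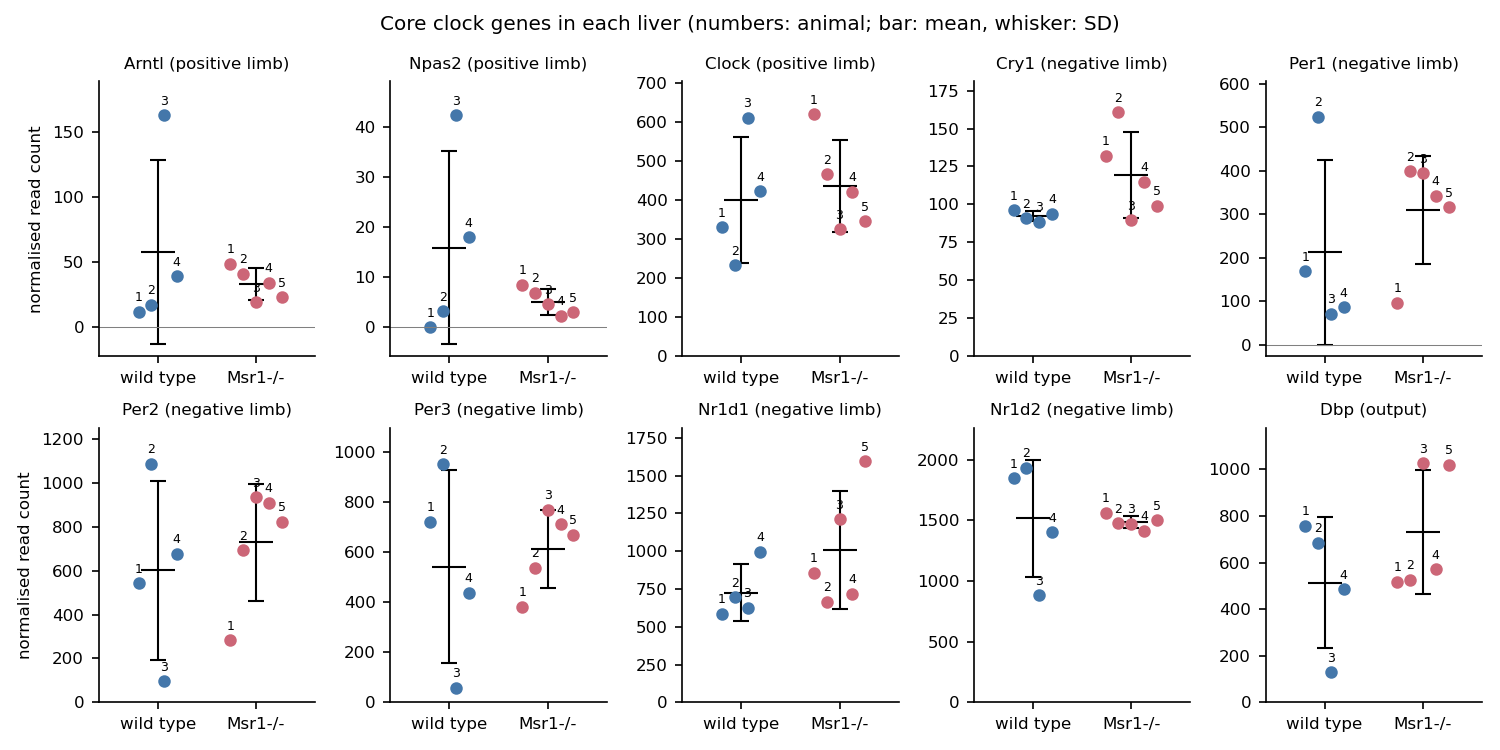
Normalised read count (vertical axis, 1 panel per gene) of the 10 core clock genes in 4 wild-type and 5 Msr1-/- livers. Each point is 1 liver with its animal number, the horizontal bar is the mean and the whisker the SD. Wild type 3 is the highest liver in Arntl (163) and Npas2 (42.4) and the lowest in Per2 (96.5), Per3 (58.8) and Dbp (129), and the genotypes overlap in every panel.

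The plot of fold changes sets the members side by side. Over the 9 livers, 8 members had a positive log2 fold change and Arntl and Npas2 a negative one, and the median of the 9 tested members was 0.43, beside 0.02 over all tested genes. On leaving out wild type 3 the sign turned in 5 members, Arntl, Npas2, Per2, Per3 and Nr1d2, and the median of the 9 was 0.32. The turn of Npas2 was on the log2(value + 1) scale, and edgeR and DESeq2 without wild type 3 left it negative, at -0.53 and -0.50. The adjusted p values of the members lay between 0.416 and 0.964 in limma on 9 livers, and between 0.329 and 0.867 without wild type 3.

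**Figure D2:**
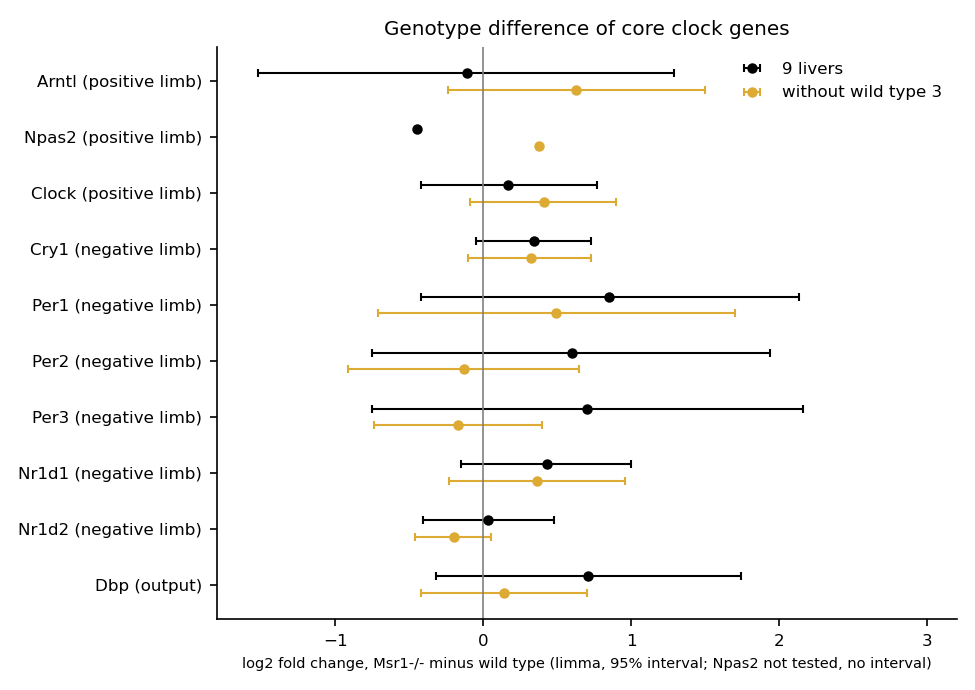
Log2 fold change (horizontal axis, Msr1-/- minus wild type) of each core clock gene in limma with its 95% interval, over 9 livers (black) and without wild type 3 (yellow). Every interval includes 0, and Arntl moves from -0.11 to 0.63 and Per3 from 0.70 to -0.17 when wild type 3 is left out. Npas2 was not tested and has no interval.

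The question of opposite limbs was read from the mean log2 fold change of Arntl, Npas2 and Clock against that of Cry1, Per1, Per2, Per3, Nr1d1 and Nr1d2, as a description without a test. Over the 9 livers the positive limb had a mean of -0.13, with 1 of 3 genes above 0, and the negative limb 0.49, with 6 of 6 above 0, a difference of -0.62 (-1.10 in edgeR and -1.09 in DESeq2). In the 8 other livers the positive limb had a mean of 0.47, with 3 of 3 genes above 0, and the negative limb 0.11, with 3 of 6 above 0, a difference of 0.36. The limbs thus had means of opposite sign over the 9 livers, and without wild type 3 both means were above 0. The negative mean of the positive limb rested mostly on the untested Npas2 (-0.45), with Arntl at -0.11 and Clock at 0.17. It was not below 0 in every limma fit that kept wild type 3. Without wild type 4, Arntl, Npas2 and Clock were at -0.05, -0.01 and 0.23, and array weights gave 0.20, -0.31 and 0.25. On the recovered reads without wild type 3, Npas2 was at -0.53 in edgeR and -0.50 in DESeq2, so that 2 of 3 positive limb genes were above 0, and the limb difference was 0.05 and 0.06. With Msr1-/- 1 left out as well, the difference in limma was 0.07. These alternatives on reads and without both livers were chosen after the data were seen.

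Between single livers the limbs stood in different proportions. The mean log2(value + 1) of the positive limb minus that of the negative limb was -4.76, -4.62, -0.02 and -2.51 in wild type 1 to 4, and -2.40, -3.32, -4.17, -3.90 and -4.20 in Msr1-/- 1 to 5. The wild-type livers spanned a wider range than the Msr1-/- livers, with both the lowest and the highest value, and an SD of 2.22 against 0.75. The SD of the other 3 wild-type livers was 1.26. The untested Npas2, with 0 to 54 reads per liver, counts as much as Arntl and Clock in these values. Its part in their spread was not separated. Wild type 4 and Msr1-/- 1 came next after wild type 3, with a positive limb 0.63 and 0.59 above its mean over the livers and a negative limb 0.19 and 0.33 below it.

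**Figure D3:**
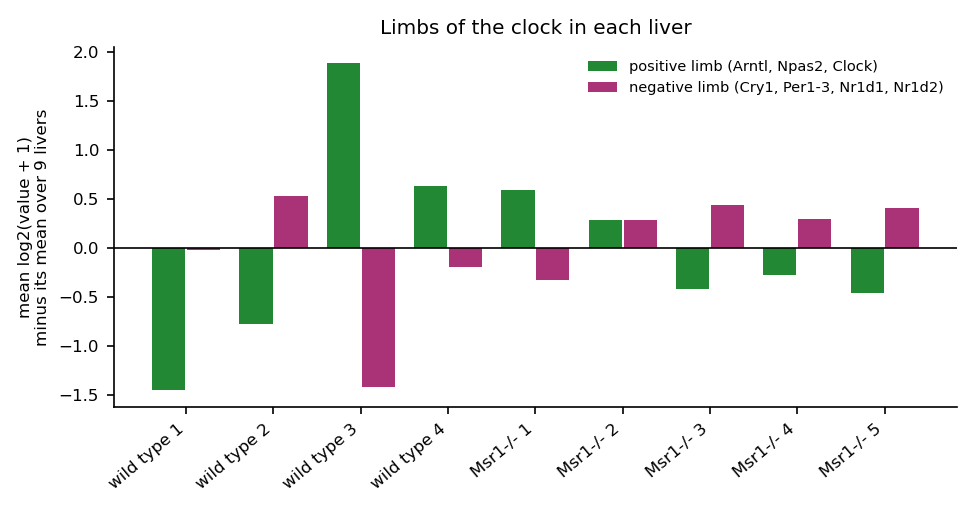
Mean log2(value + 1) of the positive limb (green) and of the negative limb (purple) in each liver, less its mean over the 9 livers. The positive limb includes the untested Npas2, which had few reads. Wild type 3 has the highest positive limb (1.88 above the mean) and the lowest negative limb (1.42 below it), wild type 4 and Msr1-/- 1 show a smaller change of the same kind, and Msr1-/- 3, 4 and 5 and wild type 2 show the opposite.

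The relation of Arntl to each other member across the 9 livers was then read gene by gene (9 relations, exact permutation over 362880 pairings, two-sided, adjusted over the 9). Clock was higher where Arntl was higher (Pearson r = 0.84, exact p = 0.00456, adjusted 0.00821, and Spearman rho = 0.93, exact p = 0.00075, adjusted 0.0059), and without wild type 3 and wild type 1, the 2 livers farthest from the median of Arntl, r was 0.95. Npas2 was too (r = 0.88, exact p = 0.00223, adjusted 0.00821, and rho = 0.80, exact p = 0.0138, adjusted 0.0311), with r = 0.59 without those 2 livers. Per3 was lower where Arntl was higher (r = -0.92, exact p = 0.00075, adjusted 0.00675, and rho = -0.92, exact p = 0.00131, adjusted 0.0059), with r = -0.90 without the 2 livers. Dbp was lower there too (r = -0.90, exact p = 0.00376, adjusted 0.00821, and rho = -0.82, exact p = 0.0108, adjusted 0.0311), with r = -0.79 without them. On leaving out wild type 3 alone, r was 0.84 for Clock, 0.78 for Npas2, -0.80 for Per3 and -0.70 for Dbp over 8 livers. These 4 relations kept their sign on values centred on the genotype means, at r = 0.87 for Clock, 0.89 for Npas2, -0.95 for Per3 and -0.97 for Dbp. Within a genotype there are too few livers for a value of their own. The adjustment covers the 9 relations only, and the share of all tested genes with such an r was not counted. Genes outside the clock reached larger values with Arntl, among them Fabp4 (r = 0.967) and Ttc39b (r = -0.966). The relations are therefore not shown to be particular to the clock.

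For Per2 and Nr1d2, Pearson's r passed and the rank correlation did not. Per2 had r = -0.81 (exact p = 0.0167, adjusted 0.0251) but rho = -0.62 (exact p = 0.0857, adjusted 0.145), with r = -0.77 without the 2 farthest livers and -0.42 without wild type 3 alone. Nr1d2 had r = -0.90 (exact p = 0.00426, adjusted 0.00821) but rho = -0.60 (exact p = 0.0968, adjusted 0.145), with r = -0.54 without the 2 farthest livers and -0.70 without wild type 3 alone. For Per1, r was -0.62 (exact p = 0.0632, adjusted 0.0813) and rho -0.52 (exact p = 0.162, adjusted 0.208). Cry1 (r = 0.15, exact p = 0.679, adjusted 0.679, and rho = 0.18, exact p = 0.644, adjusted 0.724) and Nr1d1 (r = -0.21, exact p = 0.576, adjusted 0.648, and rho = -0.03, exact p = 0.948, adjusted 0.948) did not pass, and r of Cry1 was 0.73 without the 2 farthest livers.

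**Figure D4:**
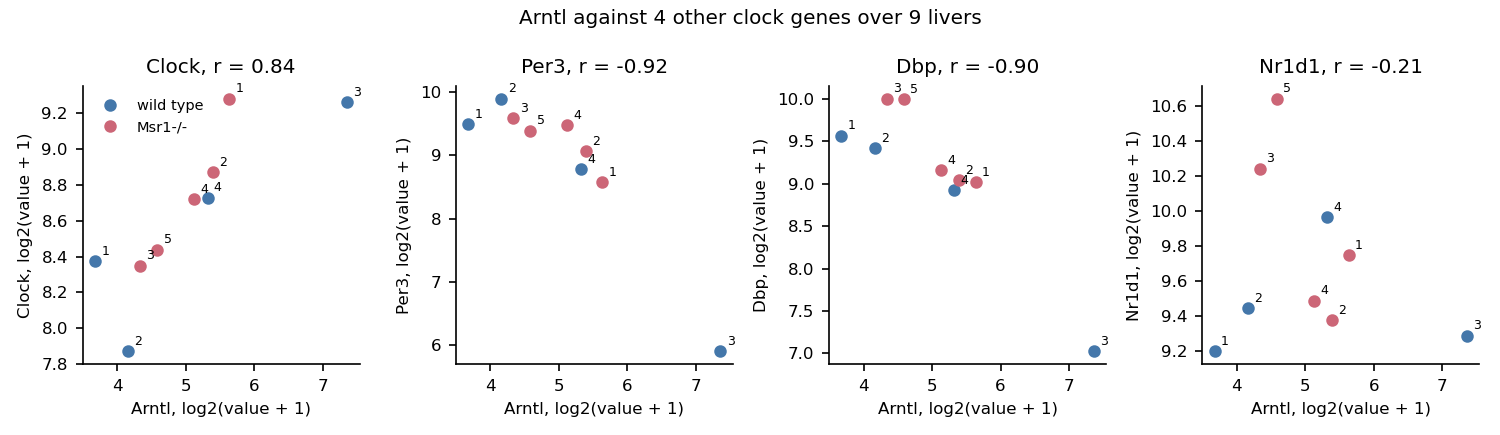
Arntl (horizontal axis) against Clock, Per3, Dbp and Nr1d1 (vertical axes), all as log2(value + 1), in 4 wild-type (blue) and 5 Msr1-/- livers (red), with animal numbers. Clock increases with Arntl (r = 0.84), Per3 (r = -0.92) and Dbp (r = -0.90) decline with it, and Nr1d1 (r = -0.21) does not follow it. Wild type 3 lies far to the right in each panel.

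Most members varied more between livers than the average gene did. The SD of log2(value + 1) over the 9 livers had a median of 0.89 over the 9 tested members and 0.31 over all tested genes. Per3 (1.20), Per2 (1.10), Per1 (1.09) and Arntl (1.08) lay above 97.9%, 97.4%, 97.3% and 97.1% of tested genes, and Cry1 (0.30) and Nr1d2 (0.32) above 48.0% and 52.9%. Leaving out wild type 3 gave a median of 0.44 for the members and 0.27 for all tested genes, with Per3 at 0.44 (above 80.0% of genes), Per2 at 0.61 (91.6%), Arntl at 0.69 (94.0%) and Per1 at 0.99 (98.0%). Among the 5 Msr1-/- livers alone, which do not include wild type 3, the median was 0.51 for the members and 0.21 for all tested genes. There Per1 (0.86) and Per2 (0.72) lay above 98.5% and 96.9% of genes, while Nr1d2 (0.05) lay above 1.30%. The SDs of Per1 and Per2 in this group rested largely on Msr1-/- 1. It held 96.4 of Per1 against 316 to 399 in the other Msr1-/- livers, and 282 of Per2 against 693 to 933.

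The other genes of the clock loop did not pass either. Of 16 genes, which include Cry2, the D-box factors Tef, Hlf and Nfil3, the repressors Bhlhe40, Bhlhe41 and Ciart and the kinase genes Csnk1d and Csnk1e, whose products act on PER proteins, 0 passed in limma, 0 in edgeR and 0 in DESeq2, with 2 at an unadjusted p under 0.05 in limma. Of all tested genes, 15.3% reached that unadjusted p. The median log2 fold change of the 16 genes was 0.29, beside 0.02 over all tested genes, and 0.06 without wild type 3. Among the genes of smallest p were Btrc (175 ± 35.6 against 219 ± 22.1 in Msr1-/-, SD, n = 4 and 5 here and below, limma adjusted p = 0.311) and Hlf (676 ± 275 against 903 ± 68.7, limma adjusted p = 0.398). The log2 fold changes of Btrc and Hlf were 0.34 and 0.53, and 0.32 and 0.18 without wild type 3.

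Wild type 3 was outside the range of the other 8 livers in 9 of the 16, a share near the 51.9% of all tested genes. Ciart and Usp2 are named from these after their values were seen. It held 14.1 of Ciart, an E-box-driven repressor, against 51.2 to 424 in the other wild-type livers and 63.6 to 271 in Msr1-/-. Tef stood at 621 in wild type 3, 2454 to 3953 in the other wild-type livers and 2017 to 3401 in Msr1-/-. Usp2, a rhythmic deubiquitinase gene, stood at 39.2, 86.3 to 783 and 259 to 613 in the same order.

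**Figure D5:**
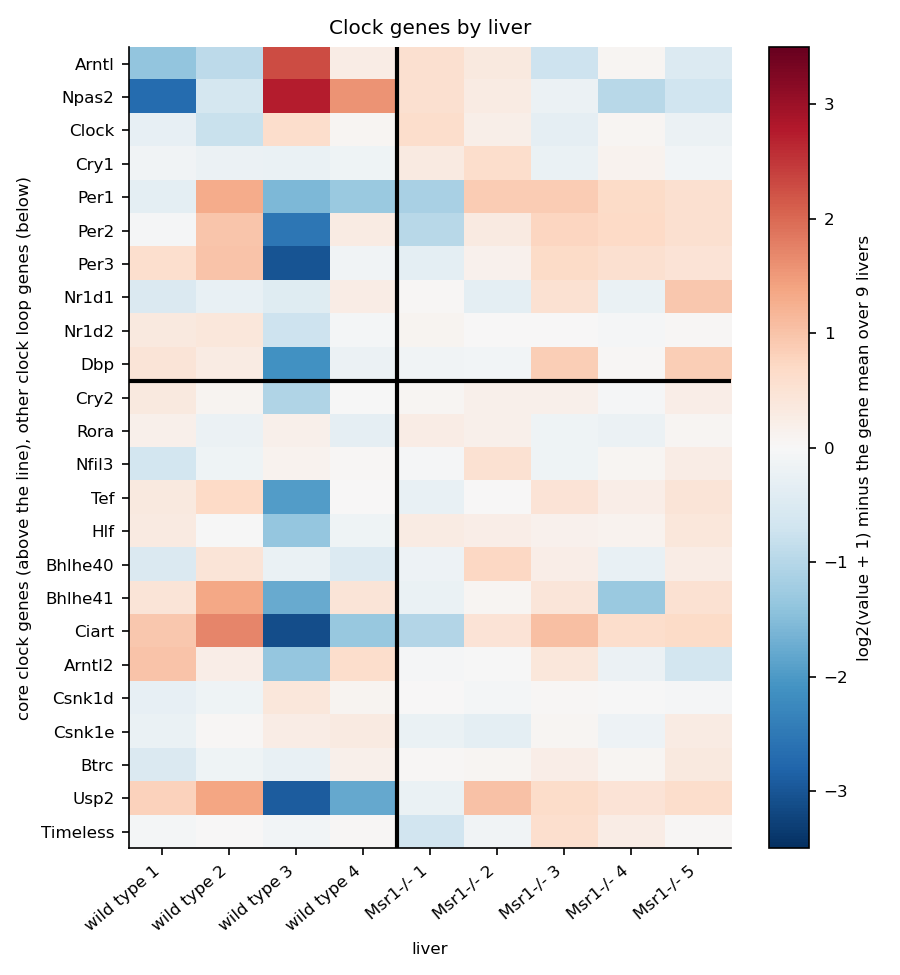
Log2(value + 1) of the 10 core clock genes (above the line) and other clock loop genes (below it) in each liver (columns), less the mean of the gene over the 9 livers, red above and blue below the mean. The column of wild type 3 is red for Arntl and Npas2 and blue for Per1, Per2, Per3, Dbp, Tef, Ciart and Usp2, and no row separates the 4 wild-type from the 5 Msr1-/- livers.

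Of 16 tested rhythmic liver outputs, 13 had a positive log2 fold change (median 0.33, beside 0.02 over all tested genes). In limma 0 passed, with 3 at an unadjusted p under 0.05, beside 15.3% of all tested genes. In edgeR 0 passed, and in DESeq2 1 did, Slc45a3, beside 6.0% of genes. Rgs16, which encodes a regulator of G protein signalling, stood at 401 ± 215 in wild type and 821 ± 374 in Msr1-/- (limma adjusted p = 0.202), and Slc45a3 at 209.7 ± 35.8 and 296 ± 35.7 (limma adjusted p = 0.119), with no overlap of the genotypes. Both passed without wild type 3, at log2 fold changes of 1.41 and 0.58 (limma adjusted p = 0.0388 and 0.0399), as did 4.91% of all tested genes. There edgeR gave adjusted p = 0.0507 for Rgs16 and 0.0469 for Slc45a3. Without wild type 3 and Msr1-/- 1, the limma adjusted p was 0.0377 for Rgs16 and 0.061 for Slc45a3. Por, the electron donor of cytochromes P450, stood at 3536 ± 1645 and 5176 ± 821 (limma adjusted p = 0.283). Alas1, the first enzyme of haem synthesis, stood at 4433 ± 4659 and 7115 ± 3110.2 (limma adjusted p = 0.387). The log2 fold changes of Por and Alas1 were 0.65 and 1.07, and 0.39 and 0.98 without wild type 3.

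Genes that answer to body temperature, glucocorticoids and food, the signals that set the clocks of liver cells, were read in the same way. Of 8 temperature-responsive genes, 0 passed in limma, edgeR or DESeq2, and 0 had an unadjusted p under 0.05 in limma. The cold-induced Cirbp stood at 268 ± 41.1 in wild type and 229 ± 46.6 in Msr1-/-, Rbm3 at 436 ± 72.3 and 387 ± 59.3, and the heat shock genes Hsph1 and Dnajb1 at 474 ± 132 and 279 ± 25.8 in wild type and at 644 ± 239 and 366 ± 148 in Msr1-/-. Of 11 glucocorticoid-responsive genes, 0 passed in limma, with 2 at an unadjusted p under 0.05, beside 15.3% of all tested genes. In edgeR 0 passed, and in DESeq2 1 did, the metallothionein gene Mt1, beside 6.0% of genes. Mt1 stood at 304 ± 139.6 and 124 ± 31.2 (limma adjusted p = 0.0855). On leaving out 1 liver it passed in limma only without wild type 4 (adjusted p = 0.042), with limma adjusted p up to 0.197 in the other fits. Mt2 stood at 66.1 ± 44.7 and 25.0 ± 15.2, the glucocorticoid-induced Tsc22d3 at 841 ± 428 and 1440.2 ± 595, and Errfi1, an inhibitor of EGF receptor signalling, at 9073 ± 4412 and 11765 ± 1487. The log2 fold changes of Mt2 and Tsc22d3 were -1.34 and 0.83, and -0.95 and 0.41 without wild type 3. Wild type 3 was outside the range of the other 8 livers in 4 of the 11, beside 51.9% of all tested genes. Tsc22d3 (309) was below that range, and Sgk1 (322), Mt2 (127) and Cdkn1a (775) were above it. These are named here after their values were seen.

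Of 8 fed-state genes, 0 passed in limma, with 1 at an unadjusted p under 0.05, beside 15.3% of all tested genes. In edgeR 0 passed, and in DESeq2 1 did, beside 6.0% of genes. It was Pnpla3 (35.1 ± 20.6 against 12.4 ± 5.0, limma adjusted p = 0.155). The lipogenic genes Srebf1 (6306 ± 2170.3 against 8172 ± 2134) and Thrsp (8105 ± 4164 against 12715 ± 5725) and the glycolytic Pklr (1462 ± 407 against 1616 ± 161) did not pass. The log2 fold changes of Srebf1, Thrsp and Pklr were 0.38, 0.71 and 0.18, and 0.26, 0.28 and 0.28 without wild type 3. Of 9 fasting-state genes, 2 rose and 0 fell in limma, beside 0.665% and 0.703% of all tested genes, and the median log2 fold change was 0.36, or 0.69 without wild type 3. Of these, Angptl4, an inhibitor of lipoprotein lipase, stood at 1072 ± 387 in wild type and rose to 1962 ± 153 in Msr1-/-, 1.90-fold higher with no overlap of the genotypes (limma adjusted p = 0.041). The call of Angptl4 was not firm on leaving out 1 liver: it was kept only without wild type 2 or 3, with limma adjusted p up to 0.101. edgeR did not call Angptl4 (adjusted p = 0.0566) and DESeq2 did (adjusted p = 0.00211). Pck1, the gluconeogenic enzyme gene, stood at 15159 ± 7210.4 and 24969 ± 6862 (limma adjusted p = 0.286), and Cpt1a, of mitochondrial fatty acid import, passed only without wild type 3 (limma adjusted p = 0.0404).

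Among 8310 other genes with a mean of 100 or more, likeness to 2 members was ranked by Pearson r of log2(value + 1) over the 9 livers. Dbp was followed most closely by Ogt (r = 0.98), which encodes the enzyme that adds O-linked N-acetylglucosamine to proteins, and by Fyco1, Map2k6, Pcsk4 and Tef (r from 0.949 to 0.958). Its most negative relations were with Unc119b (r = -0.974), Tnfrsf12a, the collagen genes Col3a1 and Col1a2, and Nudt18 (r = -0.96). Arntl was followed by Fabp4 (r = 0.967), the cell cycle inhibitor gene Cdkn1a, Tubb6, Tars and Anxa5 (r = 0.957), and mirrored by Ttc39b (r = -0.966), the uridine phosphorylase gene Upp2 (r = -0.958), Eef2k, Fam208a and Ist1 (r = -0.938). Wild type 3 lay outside the range of the other 8 livers in each of these genes, with Col3a1 at 2916 against 273 to 620.4 and Upp2 at 1290.5 against 4363 to 13813. Over the other 8 livers, r with Dbp was 0.72 (Tef) to 0.90 (Ogt) for the positive genes and -0.87 (Unc119b) to -0.80 (Nudt18) for the negative ones. With Arntl it was 0.88 (Anxa5) to 0.92 (Fabp4) and -0.96 (Ttc39b) to -0.82 (Ist1). These values describe the ranking and carry no test.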

How the data were processed

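Liver RNA of 9 mice was sequenced with the TruSeq RNA kit, and per the submitters' processing notes STAR, HTSeq, DESeq2 and the mm10 build were used; versions and the strand setting are not given in the sources used here. The deposited table holds a signal, read counts divided by a size factor by the authors, with 1 column per animal. Dividing by the smallest step returned whole reads (100% within 0.01), 15006773 to 18238932 per liver. No replicates were alike within sampling noise (chi-square per degree of freedom 19.7 or more). Values were tested as log2(value + 1) with limma 3.58.1 (trend, genotype term, R 4.3.3) in 12937 genes with a mean of 10 or more, Benjamini-Hochberg adjusted, threshold 0.05. On simulated data it recovered 47% of 2-fold and 90% of 4-fold changes, with 2.84% of 141 calls false. The simulation drew independent counts for randomly chosen genes, without an outlying liver such as wild type 3. Its rates therefore do not hold for the clock genes, most of which varied more between livers than the average gene. edgeR 4.0.16 and DESeq2 1.42.0 on recovered reads, other scalings, filters and pseudocounts, and leaving out livers were alternatives. P-values measure the spread between these animals. Named genes were the members, Msr1, called genes or up to 4 of smallest p in each of 6 lists, and the 5 genes nearest and 5 most opposite to Dbp and Arntl. The members and lists were chosen with earlier results of these data known. Some genes of the lists are counted but not reported by name here.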

Additional observations from a re-analysis of the deposited data

Results flagged for a closer look

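On the first principal component Msr1-/- 1 stood at -8.30, against 4.76 to 20.52 in the others of its group and -88.74 in wild type 3. In Msr1-/- 1, Per1 stood at 96.4 against 316 to 399, Per2 at 282 against 693 to 933 and Por at 3713 against 5463 to 5651. These were 3 of 72 groups of livers tested, and chance marks about 1 in 20. With Msr1-/- 1 and wild type 3 both left out, the log2 fold changes of Per1 and Per2 were 0.87 and 0.18 (limma adjusted p = 0.319 and 0.697).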

How the results depend on the processing

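The count of clock genes called was 0 under each alternative run. Genes called over the whole table, 177 in limma, came to 773 with DESeq2, 531 with array weights, 36 to 629 on leaving out 1 liver (629 without wild type 3), 658 and 1059 with edgeR and DESeq2 without wild type 3, and 500 without wild type 3 and Msr1-/- 1; the last 3 alternatives were chosen after seeing the data, and the cause was not tested. The animal numbers did not pair the livers (correlations of deviations 0.025, -0.077, -0.102 and 0.218, and 1 of 8 livers closest to its own number), and with the number as a replicate block 8 genes and 0 clock genes were called. The positive minus negative limb difference of -0.62 ranged from -1.22 to 0.36 on leaving out 1 liver, and turned to 0.05 with edgeR and 0.06 with DESeq2 without wild type 3 and to 0.07 without wild type 3 and Msr1-/- 1. Leaving out 1 liver gave log2 fold changes from -0.72 to -0.31 for Msr1, -0.60 to 0.63 for Arntl, -1.43 to 0.38 for Npas2, -0.06 to 0.41 for Clock, -0.13 to 1.03 for Per2, -0.17 to 1.16 for Per3 and -0.20 to 0.17 for Nr1d2. Signs also turned with array weights for Arntl (0.20) and Nr1d2 (-0.12), and for Nr1d2 with quantile scaling (-0.01), edgeR (-0.03) and DESeq2 (-0.03). Without wild type 3, edgeR and DESeq2 gave 0.52 and 0.54 for Arntl, -0.53 and -0.50 for Npas2 (no turn), -0.09 and -0.08 for Per2, -0.21 and -0.20 for Per3, and -0.23 and -0.22 for Nr1d2. Without wild type 3 and Msr1-/- 1, limma gave 0.48 for Arntl, 0.19 for Npas2, -0.01 for Per3 and -0.22 for Nr1d2. The other 195 values of clock genes kept their direction and none passed the threshold, with no p for Npas2 in the fits that leave it untested; edgeR and DESeq2 on 9 livers moved Arntl to -0.83 and -0.81, Npas2 to -1.68 and -1.67 and the limb difference to -1.10 and -1.09. Npas2, with 0 to 54 reads per liver, is limited by depth.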
